A study of Homo sapiens with 12 samples.

Results

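The mitochondrially encoded genes were the 37 genes of the deposited table whose symbol starts with MT-, out of 78894 genes: 13 mRNAs, 2 rRNAs and 22 tRNAs. They were measured in 12 libraries of 3′-end RNA counts from cardiomyocytes made from WTC-mEGFP-ACTN2-cl85, an established line of human induced pluripotent stem cells. The line is a single clone, and the cells of every group, controls included, carry a heterozygous mEGFP tag at the C-terminal end of ACTN2, the sarcomeric alpha-actinin gene. Cells were enriched with lactate and treated for 48 h in 4 groups of 3 cultures. The groups were vehicle (DMSO), endothelin-1 at 10 nM, sacubitrilat at 16 µM, and endothelin-1 plus sacubitrilat at those doses. Endothelin-1 is a vasoconstrictor peptide that enlarges cardiomyocytes, and sacubitrilat blocks neprilysin, an enzyme of the cell surface that breaks down natriuretic peptides. For the 6 libraries with 1 compound, a further description line gives the opposite compound. Groups follow the titles and treatment labels, and if that line were true every result between the single compounds would change direction and each comparison with 1 compound would become that of the other.

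The human mitochondrial genome encodes subunits of respiratory complexes I, III, IV and V, and the rRNAs and tRNAs that translate them, while all other subunits come from the nucleus. Both strands are transcribed as long precursor RNAs, most mRNAs and rRNAs are cut out at the tRNAs that flank them, and most mRNAs receive a short poly(A) tail. MT-ATP8 with MT-ATP6, and MT-ND4L with MT-ND4, remain joined in shared mRNAs, and MT-ND6 is the mRNA of the light strand. Heart muscle is rich in mitochondria, and their transcripts are abundant in its RNA.

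The sequences below come from GENCODE transcripts on GRCh38, plus strand, and show features that matter for a library primed on poly(A). The first set gives the most A-rich 30 bases of 4 genes. MT-RNR2 and MT-ND4 had the most counts, and MT-ATP8 and MT-CO3 were among those that differed between groups. Runs of 4 or more A are in capitals.
MT-ATP8, chrM:8482-8511: aaagcccatAAAAAtAAAAAAttataacaa
MT-RNR2, chrM:2444-2473: ataaggaaaggttAAAAAAAgtAAAAggaa
MT-ND4, chrM:10812-10841: ccAAAAAAcacataatttgaatcaacacaa
MT-CO3, chrM:9659-9688: aatagAAAAcaaccgaaaccaaataattca
The MT-ATP8 stretch held 20 A, the most among the 13 mRNAs and 2 rRNAs. The MT-RNR2 stretch held 19, the MT-CO3 stretch 18 and the MT-ND4 stretch 17. MT-ND2, MT-ND5 and MT-ATP6, not shown, also held 18. MT-ND6, not shown, held 13, although its fold change exceeded that of MT-ATP8 in the combination against endothelin-1. Whether such stretches served as capture sites was not tested.

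The second set shows where the joined mRNAs overlap, with the shared bases in capitals. MT-ATP8 shares its last 46 bases with MT-ATP6, and MT-ND4L shares its last 7 with MT-ND4, so reads there could count for either gene.
MT-ATP8 end, chrM:8513-8572: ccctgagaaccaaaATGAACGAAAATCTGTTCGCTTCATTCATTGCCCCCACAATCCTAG
MT-ND4L end, chrM:10737-10766: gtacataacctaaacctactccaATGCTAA
Of the 13 mRNA genes, 6 end in an incomplete stop codon that the poly(A) tail completes. The ends of MT-ND4 and MT-CO3 show this, with the lone T in capitals.
MT-ND4 end, chrM:12108-12137: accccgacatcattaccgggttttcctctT
MT-CO3 end, chrM:9961-9990: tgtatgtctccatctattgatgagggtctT

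Library totals were unequal, and this bears on every result. The 6 vehicle and combined libraries held 80844 to 316932 counts and the 6 single-compound libraries 1268308 to 1953122, a 10.1-fold difference in the mean. Both primary comparisons of the series, endothelin-1 against vehicle and the combination against endothelin-1, therefore set high totals against low ones, and treatment and library total cannot be told apart there. The same holds for sacubitrilat against vehicle and for the combination against sacubitrilat. Totals were closer between the single compounds and between vehicle and the combination. The summed total was 1.09-fold higher with endothelin-1 than with sacubitrilat, and 1.49-fold higher with vehicle than with the combination. Vehicle replicate 2 (80844 counts) and combined replicate 1 (87281) stood apart as the shallowest, and values without these shallowest libraries are given beside the results they change. The summed CPM (a gene's counts scaled to the library total) of 12 cardiomyocyte markers was 8640 to 22018, and no marker of any cell type list was at 0 in all libraries. The 7 fibroblast markers summed to 6724 to 7588 CPM in the single-compound libraries and 1732 to 4952 CPM in the others. The 8 endoderm and liver markers summed to 49.2 to 84.1 CPM and 200.4 to 680.3 CPM, respectively, and the 4 smooth muscle markers to 2697 to 3511 CPM and 460.8 to 2219 CPM. The part of these cell types in the mitochondrial values was not tested. In bulk RNA, fewer cells of a type and less RNA per cell cannot be told apart.

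Mitochondrially encoded RNA made up between 11.4% and 22.1% of a library. The share was 22.1%, 11.4% and 18.6% with vehicle, and 20.2%, 20.2% and 20.1% with endothelin-1. It was 15.03%, 17.2% and 14.99% with sacubitrilat, and 12.8%, 17.6% and 15.4% with both compounds. The endothelin-1 libraries were nearly alike and lay above every sacubitrilat and combined library, while the vehicle libraries spanned the whole range. Counting error was small: the 95% Wilson interval was 11.1% to 11.6% for vehicle replicate 2 and 12.55% to 12.99% for combined replicate 1, the shallowest libraries.

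Messenger RNAs carried most of this RNA. Their share was 17.4%, 9.83% and 15.1% with vehicle, 14.1%, 14.1% and 14.0% with endothelin-1, 10.8%, 12.4% and 10.8% with sacubitrilat, and 11.1%, 14.0% and 13.001% with both. The endothelin-1 share was 1.24-fold the sacubitrilat share (log2 difference 0.32, two-sided exact permutation p = 0.1, which is the smallest that 3 against 3 can give). Vehicle overlapped each other group. The tRNAs, which are short and lack the tails of mRNAs, took 0.0196% to 0.0408%, with sacubitrilat lowest at 0.0196% to 0.0220%. The combination, at 0.0361% to 0.0408%, overlapped with vehicle, at 0.0314% to 0.0377%.

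The rRNA share was 4.63%, 1.49% and 3.46% with vehicle, 6.03%, 6.06% and 6.04% with endothelin-1, 4.25%, 4.77% and 4.14% with sacubitrilat, and 1.59%, 3.54% and 2.33% with both. Every endothelin-1 library lay above every library of the other groups. The rRNA to mRNA count ratio within a library was 0.427 to 0.432 with endothelin-1 and 0.383 to 0.394 with sacubitrilat. It was 0.266, 0.151 and 0.229 with vehicle and 0.142, 0.252 and 0.179 with both. All 6 single-compound libraries lay above the other 6. Within vehicle and within the combination the ratio fell in the order of the library totals. The rRNA share was 2.10-fold higher with endothelin-1 than with vehicle (log2 difference 1.07, two-sided exact permutation p = 0.1, the smallest possible) and 1.52-fold higher with sacubitrilat than with vehicle (p = 0.3, same test). Leaving out the shallowest libraries, vehicle replicate 2 and combined replicate 1, changed the log2 differences between endothelin-1 and vehicle. That of the rRNA share became 0.60, and that of the mRNA share moved from 0.04 to -0.21. For sacubitrilat against vehicle, it left vehicle rRNA shares of 4.63% and 3.46%, which overlapped with sacubitrilat at 4.14% to 4.77%.

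**Figure D1:**
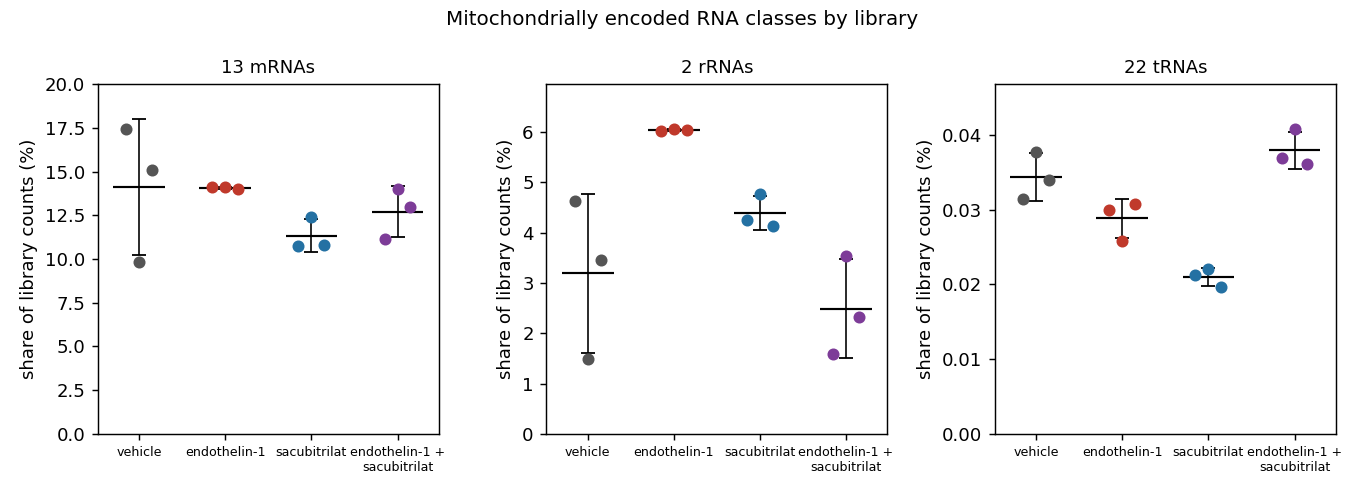
Share of library counts (%) from the 13 mRNAs, 2 rRNAs and 22 tRNAs of the mitochondrial genome, with 1 point per library, and the mean (long bar) ± SD of 3 libraries per group. The endothelin-1 libraries lie within 14.0% to 14.1% for mRNAs, and vehicle spreads from 9.83% to 17.4%.

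In averages over the other compound, each side held 1 group of high and 1 of low totals. No averaged share or ratio had an adjusted p under 0.05. Opposite differences cancel: on the log2 scale the rRNA share gave 1.07 for endothelin-1 against vehicle and -0.89 for the combination against sacubitrilat. Their average was 0.09 (raw p = 0.88, exact permutation test). Relabelling was within pairs of a high-total and a low-total group, so the reference spread holds that split. The tests therefore cannot decide whether a compound moved a share or a ratio. The 14 such tests (mRNA share, rRNA share, 4 complexes, rRNA to mRNA ratio, for each compound) gave Benjamini-Hochberg adjusted p of 0.953 to 1.0 in two-sided exact permutation tests, of which the smallest possible raw p is 0.005. The averaged log2 effect of sacubitrilat on the mRNA share was -0.22 (raw p = 0.16, same permutation test), and that of endothelin-1 was 0.10 (raw p = 0.505).

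Within the 6 vehicle and combined libraries the mitochondrial share followed the library total. Over these 6 libraries, Pearson's r with the log2 of the total was 0.988 (exact permutation p = 0.00139, adjusted p = 0.0151 over 38 relations). Spearman's rho was 1.0 (exact permutation p = 0.00278, adjusted p = 0.0352). Without the 2 libraries farthest from the median total, r was 0.977. The order was the same within each group: replicate 1, 3, 2 from the highest for vehicle and 2, 3, 1 for the combination. In the 6 single-compound libraries r was 0.120 (exact permutation p = 0.839) and rho -0.086 (p = 0.919), and r was 0.753 without the 2 libraries farthest from the median. The relation was noticed in these data.

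**Figure D2:**
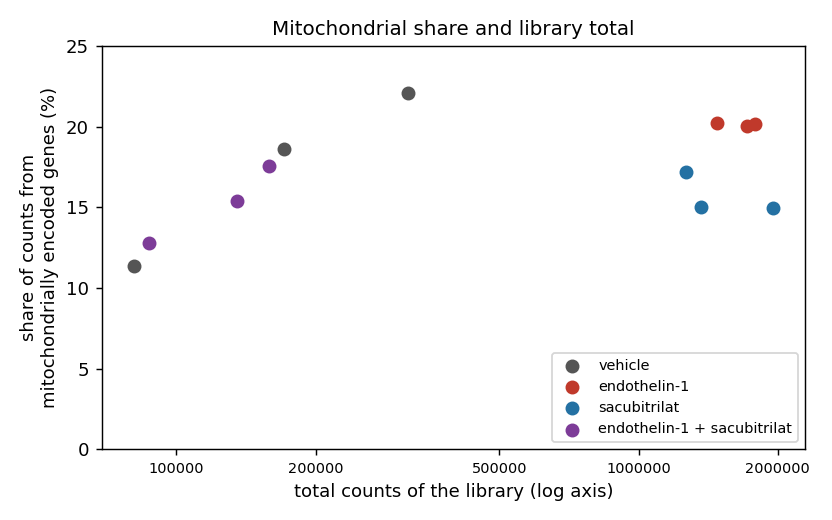
Share of counts from mitochondrially encoded genes (%) against the library total (log axis), 1 point per library. The 6 vehicle and combined libraries rise from 11.4% at 80844 counts to 22.1% at 316932, and the single-compound libraries lie between 14.99% and 20.2% with no such order.

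Complex I, the NADH dehydrogenase that takes 7 of the 13 mRNAs, held the largest part of mitochondrial mRNA counts in every library, at 48.3% to 69.8%. MT-ND4 alone held 30.3% to 55.3%. Complex IV, the cytochrome c oxidase of MT-CO1, MT-CO2 and MT-CO3, held 24.6% to 26.1% with endothelin-1 and 23.6% to 28.0% with sacubitrilat. Its part was 12.04%, 19.3% and 12.8% with vehicle and 12.6%, 10.99% and 12.4% with both, so that the single-compound libraries stood above all others. Complex V, the ATP synthase of MT-ATP6 and MT-ATP8, held 12.3% to 12.9% with endothelin-1, 14.0% to 14.5% with sacubitrilat, 14.1% to 27.8% with vehicle and 11.2% to 26.8% with both. Complex III, of which MT-CYB encodes cytochrome b, held 8.87% to 9.64% with endothelin-1, 9.08% to 9.41% with sacubitrilat, 4.59% to 9.31% with vehicle and 3.68% to 6.72% with both.

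**Figure D3:**
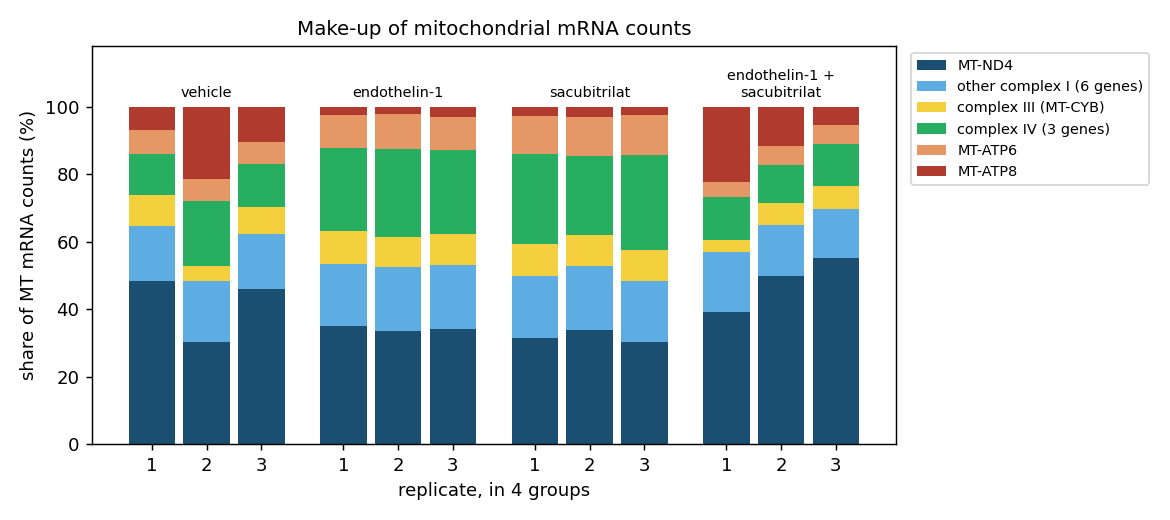
Make-up of mitochondrial mRNA counts (%) in each of 12 libraries, stacked to 100, with MT-ND4, MT-ATP6 and MT-ATP8 drawn apart from the rest of their complexes. The MT-ATP8 part is 2.27% to 3.08% in the single-compound libraries and 5.32% to 22.4% in the others, and the complex IV part is the larger in the single-compound libraries.

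Per kilobase of gene, MT-ATP8 and MT-ND4 led with vehicle, at 78818 ± 22271 and 44330 ± 20401 CPM per kb (SD, n = 3), followed by MT-RNR2 at 17973 ± 9445. With endothelin-1 the order was MT-ND4 (34949 ± 766), MT-RNR2 (34323 ± 181), MT-CO3 (24839 ± 1321), MT-ND3 (24767 ± 553), MT-ATP6 (20747 ± 550) and MT-ATP8 (17461 ± 2232). MT-CO3 and MT-ND3 differed there by less than either SD, and MT-ND4 and MT-RNR2 by less than the SD of MT-ND4 but more than that of MT-RNR2. The combination kept the 3 leaders of vehicle, with MT-ATP8 at 77296 ± 43532 CPM per kb, and sacubitrilat kept those of endothelin-1. MT-ND5, at 813 to 1261 CPM per kb in the group means, and MT-ND6, at 72.1 to 458.6, were lowest in every group. A 3′-end library reads mainly the tail end of an RNA, so division by gene length is a rough scale.

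Endothelin-1 against vehicle, the first primary comparison, gave 9 calls among the 23 members that passed the count filter, 5 higher and 4 lower (11% and 12.2% of all genes tested), where a call is an adjusted p under 0.05 in edgeR's quasi-likelihood test. Over all 11203 genes tested 23.2% were called. MT-CO3, MT-ND3, MT-ND4L, MT-RNR1 and MT-TT were higher with endothelin-1, and MT-ATP8, MT-ND6, MT-TV and MT-TK were lower. All 13 mRNAs and both rRNAs passed the filter, and 8 of 22 tRNAs did. The median log2 fold change of the 13 mRNAs was 0.27, against 0.10 over all genes tested. With the compound labels exchanged 6 members were called, and MT-ND3 (adjusted p = 0.307), MT-ND4L (0.397), MT-RNR1 (0.815) and MT-TT (0.755) were not. CPM ranges did not overlap for 7 of the 15 mRNAs and rRNAs in the higher direction (24.1% of all genes) and 2 in the lower (19%).

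MT-ATP8, a small subunit of the ATP synthase membrane part, differed most. It had 11925, 21118 and 15903 CPM with vehicle and 3529, 3201 and 4113 CPM with endothelin-1. Every vehicle library stood above every endothelin-1 library, and MT-ATP8 fell by 2.05 ± 0.34 on the log2 scale (SE, edgeR adjusted p = 2.05e-05). The fall ranged from -1.75 to -2.32 over 23 alternatives, and its highest adjusted p was 0.000794.

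MT-ATP6, the proton channel subunit encoded by the same mRNA, moved differently. Its levels were 12703, 6222 and 9626 CPM with vehicle and 13831, 14550 and 14005 CPM with endothelin-1, with a log2 fold change of 0.62 ± 0.33 (edgeR adjusted p = 0.174). Limma-voom (adjusted p = 0.0311) and the edgeR fit without vehicle replicate 1 (0.0333) called MT-ATP6 higher. The count ratio of MT-ATP8 to MT-ATP6 within a library was 0.939, 3.39 and 1.65 with vehicle and 0.255, 0.220 and 0.294 with endothelin-1. It was 0.255, 0.269 and 0.220 with sacubitrilat and 5.02, 1.96 and 0.910 with both. The ratio lay below 0.3 in all 6 single-compound libraries and above 0.9 in the other 6.

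MT-CO3, which encodes cytochrome c oxidase subunit III, had 8040, 10242 and 7608 CPM with vehicle and 18612, 20623 and 19187 CPM with endothelin-1. The groups did not overlap, and it rose by 1.28 ± 0.30 on the log2 scale (edgeR adjusted p = 0.00156). MT-CO2, which carries the copper center of the oxidase, had 7266, 6491 and 7362 CPM with vehicle and 11264, 10902 and 10597 CPM with endothelin-1. MT-CO2 did not overlap between the groups but missed the call (log2 fold change 0.71 ± 0.28, adjusted p = 0.0637), and was called with DESeq2, limma-voom and RLE scaling, without the shallowest libraries, and without vehicle replicate 1, combined replicate 1 or any sacubitrilat library. MT-CO1, the catalytic subunit, overlapped at 5669, 2208 and 4324 CPM against 4799, 5394 and 5070 CPM (log2 fold change 0.35 ± 0.31, adjusted p = 0.439).

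Among complex I mRNAs, which encode membrane subunits of the proton-pumping arm, MT-ND3 had 5261, 2826 and 4439 CPM with vehicle and 8660, 8698 and 8350 CPM with endothelin-1. MT-ND3 rose by 1.08 ± 0.29 on the log2 scale (edgeR adjusted p = 0.00616). MT-ND4L rose by 0.85 ± 0.22 (adjusted p = 0.00427), from 689.4, 507.2 and 624.1 CPM to 998.5, 945.8 and 1275 CPM, and its adjusted p was 0.0502 without endothelin-1 replicate 3 and 0.0657 after thinning to equal depth. Neither gene overlapped between the groups. MT-ND4, which shares its mRNA with MT-ND4L, had 84172, 29780 and 69307 CPM against 49342, 47311 and 47826 CPM (log2 fold change -0.31 ± 0.40, adjusted p = 0.622). The MT-ND4L to MT-ND4 count ratio was 0.0191 to 0.0267 in the single-compound libraries and 0.00498 to 0.0170 in the others. With the shallowest libraries left out, MT-ND4 was called lower with endothelin-1 (log2 fold change -0.67, adjusted p = 0.000995).

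MT-ND6 had 17, 10 and 41 counts with vehicle, or 53.6, 123.7 and 240.3 CPM, against 34.5, 75.0 and 33.4 CPM with endothelin-1. The groups overlapped, and MT-ND6 fell by 1.34 ± 0.42 on the log2 scale (edgeR adjusted p = 0.0160). That call rested on vehicle replicate 3, without which the log2 fold change was -0.45 and the adjusted p 0.590. It was also lost without endothelin-1 replicate 1 (adjusted p = 0.0566) or 3 (0.0593), and with DESeq2 and limma-voom (0.0624 each) and after thinning (0.179). The other complex I mRNAs and MT-CYB gave no call: MT-ND1 (log2 fold change 0.27 ± 0.30), MT-ND2 (-0.34 ± 0.29), MT-ND5 (-0.05 ± 0.25) and MT-CYB (0.26 ± 0.37).

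The small ribosomal RNA MT-RNR1 had 4841, 2606 and 4233 CPM with vehicle and 7128, 6954 and 6704 CPM with endothelin-1, without overlap. MT-RNR1 rose by 0.88 ± 0.30 on the log2 scale (edgeR adjusted p = 0.0302). The call was lost without vehicle replicate 2 (adjusted p = 0.0702) or 3 (0.0868) and without endothelin-1 replicate 1 (0.0607) or 2 (0.0526), and with the compared groups only (0.0708). MT-RNR2, the large ribosomal RNA, had 41449, 12274 and 30338 CPM against 53188, 53624 and 53715 CPM, also without overlap, and missed the call (log2 fold change 0.96 ± 0.40, adjusted p = 0.0810).

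Of the 8 tRNAs tested, MT-TT, the threonine tRNA just after MT-CYB and the tRNA with the most counts (763 in all), rose by 1.197 ± 0.27 on the log2 scale (edgeR adjusted p = 0.00106), from 29.3 to 68.0 CPM with vehicle to 96.4 to 102.4 CPM. MT-TV, the valine tRNA between the rRNAs, fell by 1.59 ± 0.36 (adjusted p = 0.00105), and MT-TK, the lysine tRNA just before MT-ATP8, fell by 0.96 ± 0.26 (adjusted p = 0.00673). MT-TV had 30.9 to 55.7 CPM with vehicle and 14.5 to 17.0 CPM with endothelin-1, and MT-TK 63.0 to 92.8 and 33.6 to 46.6 CPM. None of the 3 overlapped between the groups. These levels rest on few counts: each vehicle library held 5 to 14.5 counts of MT-TT and 2.5 to 16 of MT-TV. Without vehicle replicate 1 the calls of MT-TV (adjusted p = 0.0772) and MT-TK (0.333) were lost, the latter also with no filter on low counts (0.119).

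**Figure D4:**
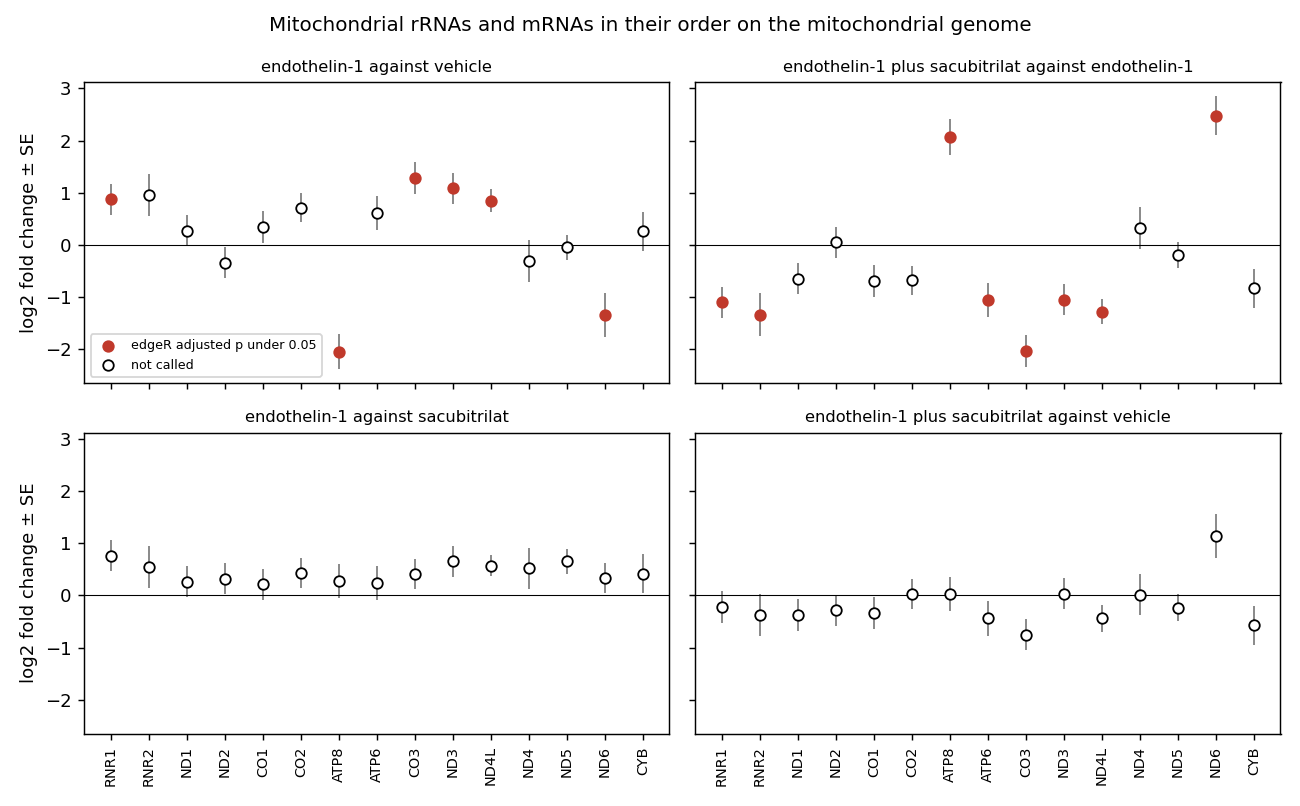
Log2 fold change ± SE of the 2 rRNAs and 13 mRNAs (horizontal axis, in their order on the mitochondrial genome) in 4 comparisons, with filled points for an edgeR adjusted p under 0.05. MT-ATP8 lies at -2.05 in endothelin-1 against vehicle and at 2.07 in the combination against endothelin-1. No point is filled in the lower panels, in this fit of all libraries. The summed totals of their groups differ 1.09-fold and 1.49-fold, and the cause of the missing calls was not tested. A fit of the single-compound libraries alone did call members between endothelin-1 and sacubitrilat.

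The combination against endothelin-1, the second primary comparison, shares its endothelin-1 libraries with the first, and opposite signs would follow from that alone. It gave 11 calls among 23 members, where 34.4% of all genes were called. Of the 11, 4 were higher (16.6% of all genes) and 7 lower (17.8%). MT-ATP8, MT-ND6, MT-TV and MT-TK were higher with both compounds, and MT-CO3, MT-ATP6, MT-ND3, MT-ND4L, MT-RNR1, MT-RNR2 and MT-TT were lower. The median log2 fold change of the 13 mRNAs was -0.68, against -0.23 over all genes tested. With exchanged labels 7 members were called, and MT-ND3 (adjusted p = 0.292), MT-RNR1 (0.39), MT-RNR2 (0.127) and MT-TT (0.0602) were not. CPM ranges did not overlap for 10 of 15 mRNAs and rRNAs in the lower direction (31.6% of all genes) and 2 in the higher (20.9%).

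MT-ATP8 had 24934, 16153 and 6914 CPM with both compounds, above every endothelin-1 library, and rose by 2.07 ± 0.34 on the log2 scale (edgeR adjusted p = 1.02e-05). MT-CO3 had 4431, 5167 and 5083 CPM, below every library of the other 3 groups, and fell by 2.04 ± 0.31 (adjusted p = 2.38e-06). MT-ND6 had 103.1, 374.7 and 244.5 CPM and rose by 2.48 ± 0.38 (adjusted p = 2.49e-06). All 3 were separated from endothelin-1 without overlap, although MT-ATP8 varied by over 3-fold among the combined libraries.

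Among the lower genes, MT-ND4L had 509.8, 346.4 and 537.2 CPM with both and fell by 1.28 ± 0.24 on the log2 scale (edgeR adjusted p = 6.14e-05). MT-ND3 had 4434, 4594 and 3824 CPM and fell by 1.05 ± 0.30 (adjusted p = 0.00544), and MT-RNR1 had 2404, 4481 and 2978 CPM and fell by 1.10 ± 0.30 (adjusted p = 0.00466). MT-ATP6 had 4966, 8234 and 7597 CPM and fell by 1.06 ± 0.33 (adjusted p = 0.0119). MT-RNR2 had 13470, 30875 and 20323 CPM and fell by 1.34 ± 0.41 (adjusted p = 0.0102). All 5 lay below endothelin-1 without overlap. Without combined replicate 1 the calls of MT-ATP6 (adjusted p = 0.0536) and MT-RNR2 (0.0659) were lost, and that of MT-RNR2 also without combined replicate 3 (0.0557).

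MT-CO2, with 7107, 6593 and 7472 CPM, MT-CYB, with 4096, 9412 and 8633 CPM, MT-CO1, with 2461, 3636 and 3594 CPM, and MT-ND1, with 3443, 4446 and 4515 CPM, also lay below every endothelin-1 library. They missed the call, with edgeR adjusted p of 0.0596, 0.0786, 0.0815 and 0.0886. After leaving out the shallowest libraries all 4 were called lower, and the number of members called rose to 17. MT-ND4, with 43541, 69588 and 71899 CPM, MT-ND2 and MT-ND5 overlapped with endothelin-1.

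The tRNAs MT-TK and MT-TV were higher with both compounds (log2 fold changes 1.54 ± 0.28 and 1.61 ± 0.42, edgeR adjusted p = 3.63e-05 and 0.00324), and MT-TT was lower (-2.09 ± 0.38, adjusted p = 5.21e-05). MT-TT had 1.5, 4 and 3 counts in the combined libraries, at or near the floor of 3 counts. Without combined replicate 2 the call of MT-TV was lost (log2 fold change 0.93, adjusted p = 0.256), as it was with no filter (0.0656).

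**Figure D5:**
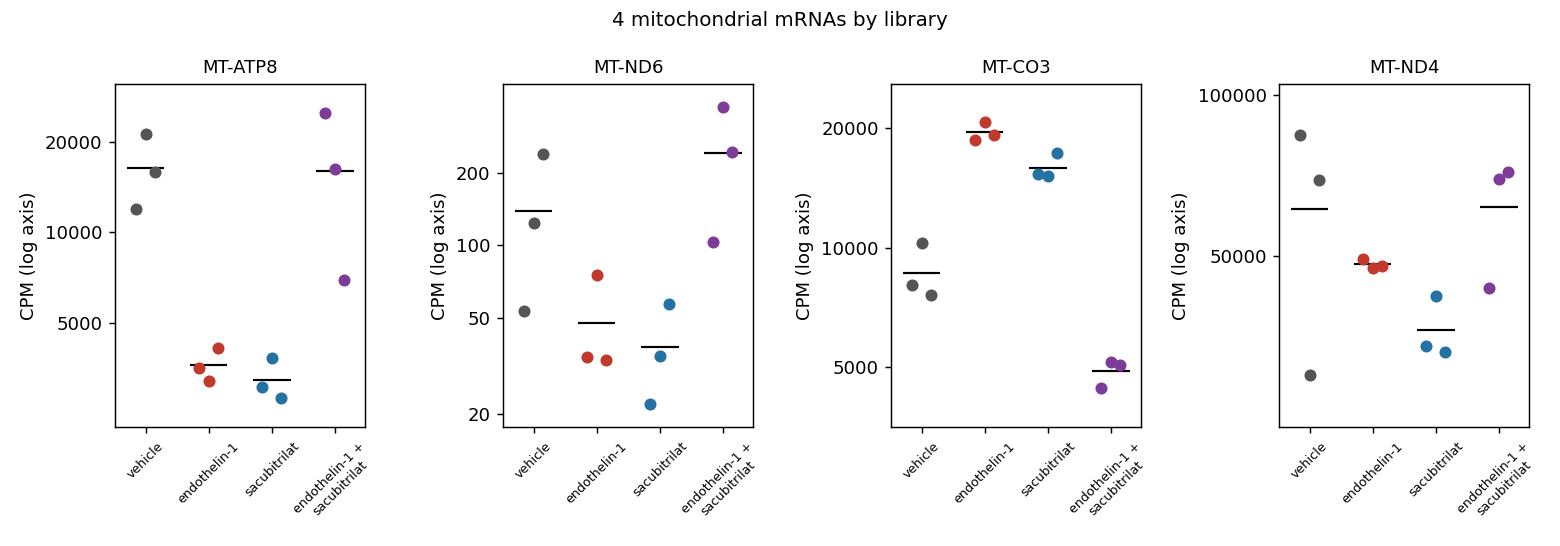
CPM (log axis) of 4 mitochondrial mRNAs, with 1 point per library and a bar at the mean of 3 libraries per group. For MT-ATP8 all 6 single-compound libraries lie below the other 6, for MT-CO3 they lie above them, and MT-ND4 ranges from 29780 to 84172 CPM within vehicle alone.

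Sacubitrilat against vehicle gave 6 calls among 23 members, where 19.9% of all genes were called. Of the 6, 1 was higher (8.68% of all genes) and 5 were lower (11.2%). This comparison shares its vehicle libraries with endothelin-1 against vehicle. It also sets high totals against low ones, so treatment and library total cannot be told apart. MT-ATP8 had 3058, 3821 and 2810 CPM with sacubitrilat and fell by 2.32 ± 0.34 on the log2 scale (edgeR adjusted p = 3.91e-06). MT-ND6, with 22.03, 34.7 and 56.8 CPM, fell by 1.68 ± 0.43 (adjusted p = 0.00469), and MT-ND5, with 1535, 1589 and 1296 CPM, by 0.70 ± 0.25 (adjusted p = 0.0407). MT-CO3, with 15268, 15083 and 17269 CPM, rose by 0.87 ± 0.30 (adjusted p = 0.0338), and MT-TK and MT-TV fell by 1.32 ± 0.28 and 2.11 ± 0.38. MT-ATP8, MT-ND5 and MT-CO3 did not overlap with vehicle, while MT-ND6 overlapped. CPM ranges were apart for 3 of the 15 mRNAs and rRNAs in each direction, as they were for 28.1% of all genes in the higher and 15.8% in the lower. Without vehicle replicate 3 the calls of MT-ND6 (adjusted p = 0.33), MT-ND5 (0.229) and MT-CO3 (0.171) were lost. MT-ND5 was also lost without vehicle replicate 1 (0.505), as was MT-TK (0.107). Other losses came without sacubitrilat replicate 3 (MT-CO3 0.0524, MT-ND5 0.0709) and without combined replicate 2 or 3 (MT-CO3 0.0671 each, MT-ND5 0.112 and 0.101). MT-CO3 and MT-ND5 lost theirs with no filter (0.0861 and 0.479), MT-CO3 with the compared groups only (0.0774) and MT-ND5 with the replicate block (0.0867).

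The combination against sacubitrilat shares its sacubitrilat libraries with that comparison. Low totals were set against high ones here, so treatment and library total again cannot be told apart. The combination against sacubitrilat gave 7 calls among 23 members, where 35% of all genes were called. Of the 7, 4 were higher (17.2% of all genes) and 3 lower (17.8%). MT-ATP8, MT-ND6, MT-TK and MT-TV were higher with both (log2 fold changes 2.34 ± 0.34, 2.81 ± 0.39, 1.90 ± 0.29 and 2.12 ± 0.45), and MT-CO3 (-1.63 ± 0.30), MT-ATP6 (-0.83 ± 0.33) and MT-ND4L (-0.71 ± 0.24) were lower. The edgeR adjusted p was 0.0474 for MT-ATP6 and 0.0190 for MT-ND4L. MT-ATP6 lost its call without each of 10 libraries (highest adjusted p 0.155, without combined replicate 1) with the replicate block (0.0529), with the compared groups only (0.0542) and with scaling free of mitochondrial genes (0.0603). MT-ND4L lost it without endothelin-1 replicates 1, 2 or 3, sacubitrilat replicates 1 or 2, or combined replicate 2 (highest adjusted p 0.168) and after thinning (0.183), and MT-TV without combined replicate 2 (0.0855). Leaving out the shallowest libraries gave 13 calls, leaving out vehicle replicate 2 alone gave 12, and leaving out combined replicate 2 gave 4. CPM ranges were apart for 4 mRNAs in the higher direction (19.4% of all genes) and for 9 mRNAs and rRNAs in the lower (35.3%).

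Between endothelin-1 and sacubitrilat, whose library totals all lay between 1268308 and 1953122 counts, all 15 mRNAs and rRNAs had a fold change above 0, from 0.21 (MT-CO1) to 0.76 (MT-RNR1) on the log2 scale, and none of the 15 was called, while 2 tRNAs were, both higher with endothelin-1. Over all genes tested 11.2% were called, 6.44% higher and 4.78% lower, and the median log2 fold change was -0.01. MT-TT was higher by 1.04 ± 0.13 (edgeR adjusted p = 8.22e-08), with 96.4 to 102.4 CPM against 49.4 to 54.4 CPM. MT-TL1, the leucine tRNA after MT-RNR2, was higher by 0.46 ± 0.13 (adjusted p = 0.0175), with 65.3 to 70.1 CPM against 49.0 to 59.3 CPM. Neither overlapped. The MT-TL1 call was lost without endothelin-1 replicate 1 (adjusted p = 0.0506) and without sacubitrilat replicate 3 (0.113), and also with DESeq2 (0.0546), limma-voom (0.155) and no filter (0.0934).

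CPM ranges were apart for 9 of the 15 mRNAs and rRNAs between these groups, all higher with endothelin-1 (10.2% of all genes were higher without overlap and 25.6% lower): MT-ND3, MT-ND4, MT-ND4L, MT-ND5, MT-CYB, MT-CO2, MT-CO3, MT-RNR1 and MT-RNR2. MT-RNR1 had 7128, 6954 and 6704 CPM against 4373, 4466 and 4428 CPM (log2 fold change 0.76 ± 0.30, edgeR adjusted p = 0.0946). MT-ND3 had 8660, 8698 and 8350 CPM against 5815, 6343 and 5555 CPM (0.65 ± 0.29, adjusted p = 0.157). Cell type markers moved with this contrast: the 12 cardiomyocyte markers summed to 20926 to 22018 CPM with endothelin-1 and 14811 to 15498 CPM with sacubitrilat. The 4 smooth muscle markers summed to 3472 to 3511 and 2697 to 2746 CPM, and the 5 epicardial markers to 42.4 to 48.2 and 141.8 to 178.7 CPM. Their part in the mitochondrial values was not tested. The main fit took the spread from all groups, vehicle and the combination included. In a fit of the 6 single-compound libraries alone 16 members were called, all higher with endothelin-1. The count was 12 without the shallowest libraries, 6 without vehicle replicate 2, 4 without vehicle replicate 1 or combined replicate 1, and 1 without endothelin-1 replicate 1 or sacubitrilat replicate 3.

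The combination against vehicle, with a summed total 1.49-fold lower and a mitochondrial share that followed the total in these libraries, gave no call among 23 members in edgeR, where 0.179% of all genes were called, 0.0803% higher and 0.0982% lower. At an unadjusted p under 0.05 there were 2, and DESeq2 and limma-voom called 1 each. The levels of MT-ATP8 (log2 fold change 0.02 ± 0.33) and MT-ND4 (0.02 ± 0.40) were close and variable in both groups. MT-CO3 alone did not overlap, lower with both compounds (-0.75 ± 0.30, edgeR adjusted p = 0.305), where 7.83% of all genes were lower and 4.94% higher without overlap. DESeq2 (adjusted p = 1.22e-08) and limma-voom (0.0344) called MT-CO3. In the fit without the shallowest libraries, MT-CO3 (-0.67, adjusted p = 0.00852), MT-CYB (-0.72, 0.00508) and MT-ND1 (-0.57, 0.0264) were called lower, and without vehicle replicate 2 alone 1 member was.

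The effect of each compound averaged over the other gave no call among 23 members in edgeR, where 1.83% of all genes were called for endothelin-1 (0.821% lower, the rest higher) and 0.259% for sacubitrilat (0.0536% higher, 0.205% lower). At an unadjusted p under 0.05 there were 2 and 5 members, DESeq2 called 1 and 3, and limma-voom 0 and 1. Once the shallowest libraries were left out, 11 members were called for sacubitrilat, all lower, among them MT-CYB (log2 effect -0.57, adjusted p = 0.000111), MT-RNR1 (-0.55, 0.000110) and MT-CO3 (-0.54, 0.000151). Without vehicle replicate 2 alone there were 4. For endothelin-1, 1 member was called without those libraries, without vehicle replicate 3 and without combined replicate 1.

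With all 6 single-compound libraries set against the other 6, 4 of the 15 mRNAs and rRNAs did not overlap. MT-CO2 (8655 to 11264 CPM against 6491 to 7472), MT-CO3 (15083 to 20623 against 4431 to 10242) and MT-ND3 (5555 to 8698 against 2826 to 5261) lay above without overlap, as 13.7% of all genes did. MT-ATP8 (2810 to 4113 against 6914 to 24934) lay below without overlap, as 9.79% did. The other 11 mRNAs and rRNAs overlapped. This grouping coincides with the split of library totals, so compound and total cannot be told apart. The interaction of the compounds, which follows the same split, was called for 12 of 23 members, 4 higher and 8 lower, where 20.1% of all genes were higher and 26% lower.

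Nuclear copies of mitochondrial genes bear on some levels. Of 405 annotated copies, 97 had counts, led by MTND1P23 (28997 counts), MTCO1P12 (15737) and MTND2P28 (11204). The copies took 31.8% of the summed counts of MT-ND1 and its copies, 24.1% for MT-CO1, 11.9% for MT-ND2, 7.88% for MT-CO2, 6.88% for MT-ATP6 and 4.23% for MT-CO3. They took 0.386% for MT-ATP8 and 0.532% for MT-ND4, so levels of the former genes are the less certain. Adding the copies to their genes left MT-ATP8 and MT-CO3 called in both primary comparisons.

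The nuclear genes that act on mitochondrial DNA and RNA were followed in a list of 53, of which 44 were tested. With endothelin-1 against vehicle 5 rose and 3 fell, against 11% and 12.2% of all genes, shares near or below those of all genes. The median log2 fold change was -0.04. REXO2, an exonuclease of short mitochondrial RNAs (1.23 ± 0.30, edgeR adjusted p = 0.00228), RRM2B, a ribonucleotide reductase subunit (2.01 ± 0.60, 0.0126), and TFB1M, a methyltransferase of the small ribosomal RNA (2.28 ± 0.69, 0.0136), were higher. FASTKD2, a protein of mitochondrial RNA granules (-2.23 ± 0.32, 1.89e-06), HSD17B10, a subunit of the mitochondrial RNase P (-0.78 ± 0.17, 0.000775), and PDE12, which removes poly(A) tails (-1.58 ± 0.38, 0.00205), were lower. Without vehicle replicate 1 the calls of RRM2B (adjusted p = 0.0604), TFB1M (0.176) and PDE12 (0.382) were lost, that of RRM2B also without vehicle replicate 3 (0.0933), and that of HSD17B10 with no filter (0.102). Sacubitrilat against vehicle gave calls in the same direction for FASTKD2 (-2.05, edgeR adjusted p = 7.65e-06), HSD17B10 (-0.66, 0.00502), REXO2 (1.10, 0.00852), PDE12 (-0.99, 0.0432) and RRM2B (1.70, 0.0499). TFB1M was not called there (1.85, 0.0701). None of these genes was called between endothelin-1 and sacubitrilat. Treatment and library total cannot be told apart in either comparison with vehicle.

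With both compounds against endothelin-1, 5 of the 44 rose and 7 fell, both shares below the 16.6% and 17.8% of all genes. FASTKD2 (2.84 ± 0.33, edgeR adjusted p = 1.21e-08), HSD17B10 (1.10 ± 0.19, 1.48e-05) and the coactivator PPARGC1B (1.89 ± 0.53, 0.00540) were higher. DGUOK, a mitochondrial deoxyguanosine kinase (-2.56 ± 0.66, 0.00257), REXO2 (-1.12 ± 0.35, 0.0115) and ELAC2, which cuts the 3′ end of tRNAs (-1.68 ± 0.56, 0.0184), were lower. Without combined replicate 2 the calls of PPARGC1B (adjusted p = 0.164) and ELAC2 (0.0557) were lost, and without combined replicate 1 that of REXO2 (0.063). Between endothelin-1 and sacubitrilat, PPARGC1A, a coactivator of mitochondrial biogenesis, was higher with endothelin-1 (1.10 ± 0.22, adjusted p = 0.000377). ESRRA, an orphan nuclear receptor (0.45 ± 0.15, 0.0450), was also higher, and GABPB1, a subunit of nuclear respiratory factor 2 (-0.64 ± 0.20, 0.0327), was lower. ESRRA lost its call without endothelin-1 replicates 2 or 3, sacubitrilat replicates 1 or 2, or combined replicate 2 (adjusted p up to 0.143), and GABPB1 without any of the 6 single-compound libraries (up to 0.163). DESeq2 and limma-voom called neither.

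The nuclear-encoded respiratory chain and ATP synthase subunits were 81 genes, of which 80 were tested. They include those of complex II, which has no mitochondrially encoded subunit. With endothelin-1 against vehicle 22 were higher and 11 lower, against 11% and 12.2% of all genes, with a median log2 fold change of 0.37. With both compounds against endothelin-1, 15 were higher and 29 lower, against 16.6% and 17.8% of all genes, with a median of -0.40. The 11 lower genes of the first comparison and the 15 higher ones of the second were near the share over all genes. Between endothelin-1 and sacubitrilat 11 were called, all of them higher, against 6.44% higher and 4.78% lower over all genes, with a median of 0.20, against -0.01 over all genes tested.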

How the data were processed

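Per the labels' protocols, 12 cultures gave stranded single-end 3′-end libraries, primed with poly(dT)VN oligos bearing molecular identifiers. The submitters' processing notes name fastp 0.24.0, featureCounts and GRCh38. Not given in the sources used here: the aligner, the annotation release, whether identifiers were used and the strand setting. Reads shared with nuclear copies or overlapping genes are therefore uncertain. The authors deposited estimated counts, of which 21.1% of those above 0 were not whole, and CPM. Deposited CPM equalled each count's share of its library total. Of 78986 features, 92 spike-ins without counts were left out.

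Rounded counts of all 12 libraries entered edgeR's quasi-likelihood test (edgeR 4.0.16 in R 4.3.3) with no term but group. Scaling was TMM, and filterByExpr kept 11203 genes. P-values were adjusted by the Benjamini-Hochberg method over all of them, with a threshold of 0.05. Shares were compared by two-sided exact permutation tests written in Python 3.11.15 with NumPy 2.4.6. SciPy 1.17.1 gave the ranks and the Wilson intervals. The tests were checked on simulated data, which for the permutation tests held no split of library totals. Depth is given by the totals, and 3 counts correspond to 1.54 to 37.1 CPM. Intervals cover counting error only, since use of the identifiers is not stated. P-values set effects against the spread between cultures, with 3 per group. In the main edgeR fit that spread was estimated over all 4 groups, also where only 2 were compared.

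The members and gene lists were chosen with earlier results of these data known. All mRNAs and rRNAs are named, and tRNAs where called in the main fit or among the 3 with the most counts. Also named are up to 3 called nuclear genes of mitochondrial DNA expression per direction and comparison by smallest p, and the 3 nuclear copies with the most counts. Alternatives were RLE scaling, scaling without mitochondrially encoded genes, no filter, DESeq2 1.42.0, limma-voom (limma 3.58.1), a replicate block, compared groups only, thinning each library to 80000 counts, a fit without the 2 libraries that held fewer than 100000, and fits without each library in turn, exchanged compound labels, and other denominators for shares. Adding nuclear copies to their genes was chosen after seeing the data. Same-numbered libraries did not deviate together (r from -0.146 to 0.0396 over 18 pairs), and over the members alone r was -0.714 to 0.475. Libraries with unlike numbers were not compared, so whether the numbers pair the cultures remains undecided.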

Additional observations from a re-analysis of the deposited data

Results flagged for a closer look

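The effect of endothelin-1 with sacubitrilat differed from its effect without it for 12 of the 23 members tested, by the interaction term of edgeR's quasi-likelihood fit, where 46.1% of all genes were called. This contrast adds vehicle and the combination and subtracts the single compounds, so it coincides with the split of library totals, and treatment and total cannot be told apart. The log2 interaction was positive for MT-ATP8 (4.39 ± 0.48, adjusted p = 1.94e-09), MT-ND6 (4.15 ± 0.58), MT-TV (3.71 ± 0.58) and MT-TK (2.86 ± 0.39). It was negative for MT-CO3 (-2.91 ± 0.43, adjusted p = 7.44e-07), MT-TT (-2.25 ± 0.51), MT-RNR2 (-1.74 ± 0.57), MT-ND4L (-1.56 ± 0.33), MT-ND3 (-1.48 ± 0.41), MT-ATP6 (-1.44 ± 0.46), MT-RNR1 (-1.22 ± 0.42) and MT-CO2 (-0.97 ± 0.40, adjusted p = 0.0458). MT-CO2 lost its call with the replicate block (adjusted p = 0.0504), with nuclear copies added (0.0543), with scaling free of mitochondrial genes (0.0663), after thinning (0.087) and without vehicle replicate 3, combined replicate 2 or any one of the 6 single-compound libraries (0.0563 to 0.0888). MT-ATP8 and MT-CO3 kept theirs in all 22 alternatives.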

How the results depend on the processing

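Counts of mitochondrially encoded genes called changed with several settings. For endothelin-1 against sacubitrilat (2 called), the count was 5 with RLE scaling, 1 without a filter, 5 with DESeq2, 6 with limma-voom, 16 in the compared groups only, 0 after thinning to 80000 counts, and 12 without the 2 libraries under 100000 counts. Endothelin-1 against vehicle (9) gave 4 after thinning and 6 with exchanged labels. The combination against endothelin-1 (11) gave 17 without the 2 shallow libraries and 7 with exchanged labels. The combination against sacubitrilat (7) gave 11 with limma-voom, 13 without the shallow libraries and 11 with exchanged labels. The combination against vehicle (0) gave 1 with DESeq2, 1 with limma-voom and 3 without the shallow libraries. The averaged endothelin-1 effect (0) gave 1 without a filter, with DESeq2 and without the shallow libraries, and the averaged sacubitrilat effect (0) gave 3 with DESeq2, 1 with limma-voom and 11 without the shallow libraries. Leaving out each library in turn gave 1 to 6 for endothelin-1 against sacubitrilat, 7 to 11 for endothelin-1 against vehicle, 10 to 16 for the combination against endothelin-1, 3 to 8 for sacubitrilat against vehicle, 4 to 12 for the combination against sacubitrilat, 0 to 1 for the combination against vehicle, 0 to 1 and 0 to 4 for the averaged endothelin-1 and sacubitrilat effects, and 11 to 16 for the interaction. The cause was not tested.

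With exchanged labels the log2 difference of the mRNA share was -0.28 for endothelin-1 against vehicle, 0.036 for sacubitrilat against vehicle, 0.16 for the combination against endothelin-1, -0.15 for the combination against sacubitrilat and -0.32 for endothelin-1 against sacubitrilat. That of the rRNA share was -0.89, -1.36 and -0.47 for the last 3. With nuclear genes as the denominator the rRNA share differed by 0.54 between endothelin-1 and sacubitrilat. The exchange reversed, by construction, the calls between the single compounds of MT-TT (-1.04), MT-TL1 (-0.46), PPARGC1A (-1.10), ESRRA (-0.45) and GABPB1 (0.64), and no other called gene changed sign in any alternative run. With the replicate number as a block, 9 members were called for endothelin-1 against vehicle and 11 for the combination against endothelin-1, 6 for the combination against sacubitrilat, 5 for sacubitrilat against vehicle and 11 for the interaction. The block ended the calls of MT-ATP6 (combination against sacubitrilat, adjusted p = 0.0529), MT-ND5 (sacubitrilat against vehicle, 0.0867) and MT-CO2 (interaction, 0.0504). MT-ND6, the tRNAs and the 14 tRNAs left untested are limited by depth.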
